A study of Mus musculus with 6 samples.

Results

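The mouse genes whose symbol begins with Zfp and a number encode zinc finger proteins. They were taken from the platform's probe annotation by that spelling, leaving out Zfp36 and the Zfp36l genes, which encode RNA-binding proteins with another kind of finger. The rule found 81 probes for 79 genes, out of 10076 probes and 8841 named genes on the array. The gene IDs of all 81 probes were found in the RefSeq gene table, and 0 symbols differed there.

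The cells were macrophages elicited with thioglycollate, an irritant that draws them into the peritoneal cavity. The mice were female C57BL/6, 6 weeks old. There were 6 groups with 1 biotin-labelled array each: TSA + GW3965 + LPS, GW3965 + LPS, TSA + LPS, LPS, TSA, and No treatment. TSA stands for trichostatin A, which blocks histone deacetylases. LPS is lipopolysaccharide, a bacterial cell wall component, and GW3965 activates the liver X receptors. The labels give no dose, no time and no number of animals per array, so the groups form 3 pairs with and without TSA, 2 with and without LPS and 2 with and without GW3965, and no single pair carries an error.

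Most zinc finger proteins of this naming series carry arrays of C2H2 fingers that read DNA sequence. A large share of them, in rodents and in humans, also carry a KRAB domain, which recruits the corepressor Trim28 and with it histone methyltransferases, HP1 proteins and deacetylase complexes. They are best known for silencing retrotransposons in embryonic cells. A smaller number of the genes have other jobs: some bind RNA, some act in the ubiquitin pathway, and some take part in cell division.

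Intensities are the deposited values, on a linear scale on which every array had a median between 0.981 and 0.987 units. The floor for low values was each array's 25th percentile, 0.198 to 0.245 units. A member entered the fit when it stood at or above the array's median on at least 1 array, which held for 46 of the 79 members (58.2%) and for 57.5% of all genes. All 46 stood above the floor on all 6 arrays, so none of their folds is a bound. Of the 79 members, 30 (38%) were at or above the median on all 6 arrays, against 43.9% of all genes, and 9 (11.4%) were under the floor on all 6, against 15.6%. The zinc finger genes in the fit were dim: the median of their mean intensities was 1.86 units, against 3.98 units for all genes in the fit.

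The macrophage label was checked against marker genes. Of 10 macrophage markers 7 were on the array, and Itgam, Lyz2, Mrc1, Fcgr1, Mertk and Cd14 were at or above the median on all 6 arrays. Adgre1, was not. The 7 summed to 979 units with TSA + GW3965 + LPS, 1136 with GW3965 + LPS, 1239 with TSA + LPS, 1112 with LPS, 766 with TSA and 1074 with No treatment. The summed neutrophil list, 8 markers on the array, was higher with TSA in each pair, at 73.8 against 53.2, 82.3 against 52.8 and 34.6 against 24.9 units. The neutrophil genes Mpo, Elane, Ngp and Cxcr2 and the T cell genes Cd3e, Cd3g, Cd8a and Cd5 were below the median on every array. Other markers of these and further cell types were at or above it on all 6: S100a8 (neutrophil), Cd4 (T cell), Cd79a, Cd79b and Cd22 (B cell), Tpsb2 and Cma1 (mast cell), Siglecf (eosinophil) and Dcn (fibroblast). Summed T cell markers ran from 3.29 to 4.42 units, B cell markers from 7.53 to 9.76, mast cell markers from 13.5 to 21.7, eosinophil markers from 3.80 to 5.97 and mesothelial or fibroblast markers from 6.87 to 12.9. In bulk RNA, fewer cells of a type and less RNA per cell cannot be told apart.

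The brightest zinc finger gene was Zfp91, which encodes a ubiquitin ligase that activates the kinase NIK in the alternative NF-kB pathway. Zfp91 read 18.4 units with TSA + GW3965 + LPS and 12.9 with GW3965 + LPS, 20.1 with TSA + LPS and 16.3 with LPS, and 24.1 with TSA and 14.5 with No treatment. All 3 arrays with TSA were brighter than all 3 without it. The mean TSA difference was 0.52 on the log2 scale (SE 0.21), and it did not pass in limma (adjusted p = 0.089). Zfp207, a spindle protein that binds the checkpoint protein Bub3, went the other way. It read 12.3 units with TSA + GW3965 + LPS and 15.4 with GW3965 + LPS, 11.7 with TSA + LPS and 16.8 with LPS, and 8.76 with TSA and 12.6 with No treatment. Its TSA difference of -0.45 (SE 0.21) was the lowest of all 46 and did not pass either (limma adjusted p = 0.136). Zfp385a, also named Hzf, a cofactor of p53, was nearly level, with 4.86 and 5.91 units with TSA + GW3965 + LPS and GW3965 + LPS, 5.503 and 5.86 with TSA + LPS and LPS, and 4.82 with TSA as with No treatment. The other 3 of the 6 brightest members, Zfp979, Zfp120 and Zfp386, are described with the TSA effect.

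Members differed in how far they moved over the 6 arrays. The brightest over the dimmest array gave a ratio of 1.17 for Zfp59, 1.21 for Zfp113, 1.23 for Zfp385a and 1.28 for Zfp40, the 4 smallest ratios among members above the floor throughout. Among the 46 in the fit, the largest was 5.07 for Zfp704. The median log2 range over the 6 arrays was 0.902 for the 46 and 0.995 for all genes in the fit.

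TSA against its partners asks which zinc finger transcripts an inhibitor of deacetylases moves, averaged over 3 backgrounds. In an additive limma model with terms for TSA, LPS and GW3965, 6 of 46 members rose with TSA and 0 fell, at an adjusted p under 0.05 over all genes. Among all 5080 genes 11% rose and 7.54% fell, so the 13% of members that rose is close to the array-wide share. The 6 were Zfp979, Zfp386, Zfp120, Zfp148, Zfp239 and Zfp30, and the other 40 did not pass. At an unadjusted p under 0.05 there were 12, of which Zfp207 was lower with TSA. The share over all genes was not computed, so nothing about the family is read from that count. Leaving out the No treatment pair left 1 (Zfp979), and raising the floor to the array median left 1 (Zfp148). Without the GW3965 + LPS pair 3 members rose, of which Zfp120 and Zfp148 were among the 6 and Zfp296 was added. Without the LPS pair 7 members rose, with Zfp61 and Zfp654 added and Zfp30 lost. Over all genes the count risen with TSA moved as well, from 557 to 377 without the No treatment pair and 241 with the higher floor. It was 334 without the GW3965 + LPS pair and 650 without the LPS pair. The summed neutrophil markers given above moved with TSA in the same direction, and their part in these results was not tested.

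Zfp979 is also named Ssm1b, a KRAB zinc finger gene known in mouse for directing DNA methylation onto a transgene. It read 16.2 units with TSA + GW3965 + LPS and 6.05 with GW3965 + LPS, 10.8 with TSA + LPS and 8.21 with LPS, and 12.9 with TSA and 5.49 with No treatment. Every array with TSA stood above every array without it. The ratios were 2.68, 1.31 and 2.35, and the fitted rise was 1.02 (SE 0.23, limma adjusted p = 0.00565), the largest TSA difference of any member.

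Zfp386, also named Kzf1, read 8.32 units with TSA + GW3965 + LPS and 4.45 with GW3965 + LPS, 7.24 with TSA + LPS and 4.82 with LPS, and 8.71 with TSA and 4.54 with No treatment. The 3 arrays without TSA lay between 4.45 and 4.82 units, and the 3 with TSA between 7.24 and 8.71. The fitted rise was 0.81 (SE 0.21, limma adjusted p = 0.0129). Zfp120 read 9.63 and 7.16 units with TSA + GW3965 + LPS and GW3965 + LPS, 10.4 and 6.35 with TSA + LPS and LPS, and 16.2 and 6.998 with TSA and No treatment. The groups with and without TSA did not overlap, and the TSA array was the highest. Its fitted rise was 0.78 (SE 0.22, limma adjusted p = 0.0192).

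Zfp148 encodes ZBP-89, which binds GC-rich promoter elements as Sp1 does. It read 2.05 units with TSA + GW3965 + LPS and 1.52 with GW3965 + LPS, 2.17 with TSA + LPS and 1.16 with LPS, and 2.25 with TSA and 1.08 with No treatment. The fitted rise was 0.80 (SE 0.24, limma adjusted p = 0.0249), and the 3 readings with TSA were all above the 3 without. Zfp239, or Mok2, whose product binds DNA and RNA, was dimmer. It read 0.863 and 0.535 units with TSA + GW3965 + LPS and GW3965 + LPS, 0.887 and 0.523 with TSA + LPS and LPS, and 1.52 and 0.787 with TSA and No treatment. Zfp30, a gene linked in mouse airways to the level of the neutrophil chemokine Cxcl1, read 0.770 and 0.429 units in the GW3965 pair, 0.935 and 0.479 with TSA + LPS and LPS, and 1.27 and 0.834 with TSA and No treatment. The fitted rises of Zfp239 and Zfp30 were each 0.80 (SE 0.27 for both, limma adjusted p = 0.0433 and 0.0478). Both genes reached the array median only on the TSA array, so they entered the fit through the array on which they were highest. For Zfp30 the groups overlapped, since No treatment lay above the TSA + GW3965 + LPS reading.

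**Figure D1:**
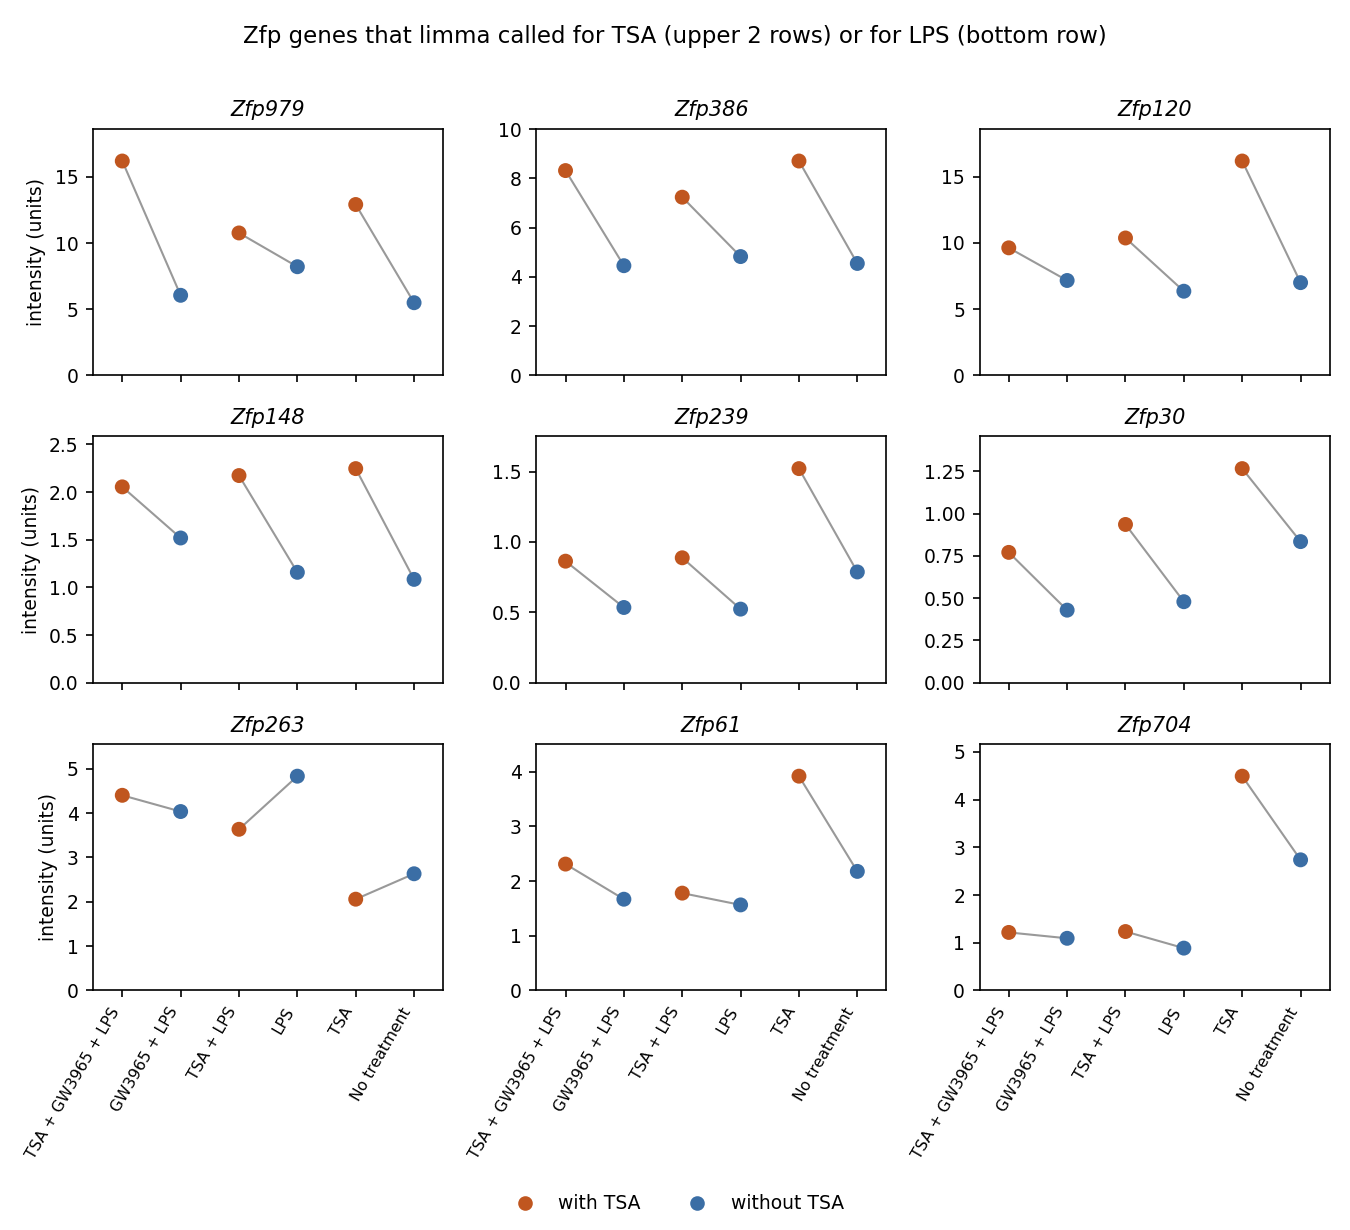
Intensity in units (y axis, linear, from 0) of the 9 Zfp genes that limma called, on each of the 6 arrays (x axis, 1 point per array); grey lines join the arrays of a pair with TSA (orange) and without it (blue). In the 6 upper panels each array with TSA lies above its partner, and in the bottom row the 4 arrays with LPS lie above the other 2 for Zfp263 and below them for Zfp704, while for Zfp61 they overlap.

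Promoters are printed for the members called for TSA or LPS that the RefSeq promoter table held, so that the genes that moved together can be compared. Each run gives the 150 bases before the annotated start, 5′ to 3′ on the gene's strand, from RefSeq's GRCm38.p6 table. The table lists 2 starts for Zfp148 and for Zfp239, of which 1 was used: the start given in the RefSeq gene table, or else the one listed first. Capitals mark 4 words on either strand: GGGCGG, the GC box that Sp1 binds; CCAAT, the word read by NF-Y; CCGGAA, a core read by ETS factors; and TATAAA, the TATA box. Matches could overlap. The first 6 rose with TSA.
Zfp979, chr4:147642509-147642658, - strand: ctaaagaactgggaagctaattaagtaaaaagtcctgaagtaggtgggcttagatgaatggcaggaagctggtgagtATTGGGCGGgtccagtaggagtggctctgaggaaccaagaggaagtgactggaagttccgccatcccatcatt
Zfp386, chr12:116047574-116047723, + strand: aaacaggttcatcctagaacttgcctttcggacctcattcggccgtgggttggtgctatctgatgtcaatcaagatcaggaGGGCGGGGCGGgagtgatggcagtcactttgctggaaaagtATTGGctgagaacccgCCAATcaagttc
Zfp120, chr2:150136679-150136828, - strand: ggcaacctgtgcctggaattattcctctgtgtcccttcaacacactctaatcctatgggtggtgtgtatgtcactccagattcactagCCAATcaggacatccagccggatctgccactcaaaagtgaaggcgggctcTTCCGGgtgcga
Zfp148, chr16:33380625-33380774, + strand: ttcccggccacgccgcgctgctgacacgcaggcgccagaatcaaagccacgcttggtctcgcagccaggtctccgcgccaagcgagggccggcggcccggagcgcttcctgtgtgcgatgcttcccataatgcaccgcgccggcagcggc
Zfp239, chr6:117861874-117862023, + strand: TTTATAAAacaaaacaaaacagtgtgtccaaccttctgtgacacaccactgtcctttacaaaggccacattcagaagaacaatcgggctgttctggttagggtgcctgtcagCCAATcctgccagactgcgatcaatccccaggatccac
Zfp30, chr7:29783818-29783967, + strand: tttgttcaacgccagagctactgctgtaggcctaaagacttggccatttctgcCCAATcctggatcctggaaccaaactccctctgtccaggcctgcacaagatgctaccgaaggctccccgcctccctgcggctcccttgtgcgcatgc
Zfp263, chr16:3743949-3744098, + strand: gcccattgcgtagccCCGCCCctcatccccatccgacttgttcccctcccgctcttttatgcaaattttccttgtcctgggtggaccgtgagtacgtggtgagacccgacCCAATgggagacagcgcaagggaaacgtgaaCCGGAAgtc
Zfp61, chr7:24299550-24299699, - strand: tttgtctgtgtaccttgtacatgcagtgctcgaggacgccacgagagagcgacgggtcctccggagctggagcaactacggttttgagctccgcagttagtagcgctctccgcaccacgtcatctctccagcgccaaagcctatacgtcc

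The word CCAAT, on either strand, occurred in 5 of the 6 promoters of members that rose with TSA, all but Zfp148. It occurred in 20 of 63 member promoters (31.7%) and in 14 of the 39 of members in the fit (35.9%). Among 17492 promoters of protein-coding genes of the same length it occurred in 27.5%. The 6 differed widely in base composition: Zfp148 held 20 CpG steps and 70.67% G and C in its 150 bases, and Zfp979 held 2 CpG steps and 48.67%. GGGCGG was found in 2 of the 6, those of Zfp979 and Zfp386, in 39.7% of member promoters and in 38.3% of all. CCGGAA stood in 1 of the 6, in 30.2% of member promoters and in 12% of all, with 28.2% among members in the fit and 33.3% among those not in it. TATAAA stood in 1 of the 6, in 4.76% of member promoters and in 7.86% of all. The motifs and members were read with the results known, and these are counts of letters only.

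The 3 TSA pairs were not alike for the zinc finger genes. In TSA against No treatment, 18 of 45 measured members (40%) were at least 1.5-fold higher, against 19.8% of all genes. In TSA + LPS against LPS there were 5 of 39 (12.8%, against 18.4%), and in TSA + GW3965 + LPS against GW3965 + LPS 6 of 40 (15%, against 14.1%). Among the 18, Zfp105, Zfp202, Zfp239, Zfp296, Zfp30, Zfp346 and Zfp654 reached the median with TSA but not with No treatment. They were thus measured through the array on which they were higher. The same rule held for all genes, but a share among genes as dim as the members was not computed. The median member difference in TSA against No treatment was 0.26 on the log2 scale, against 0.05 for all genes. In the other 2 pairs, in the order above, it was 0.11 against -0.01 and 0.10 against 0.02. A test of the difference itself, an LPS by TSA interaction term in limma, called 0 of 46 members, and 0.236% of all genes. At an unadjusted p under 0.05 that test gave 1 member, Zfp35. The share over all genes was not computed, and nothing is read from that count.

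At the 2-fold threshold the counts were small. Zfp120, Zfp148, Zfp654 and Zfp979 were at least 2-fold higher with TSA than with No treatment (4 of 45, against 6.98% of all genes) and 0 were lower (against 4.69%). With TSA + LPS against LPS, Zfp296 was 2.69-fold higher (1 of 39, against 7.57%) and Zfp35 2.08-fold lower (1 of 39, against 9.55%). In the GW3965 pair Zfp979 was the 1 member of 40 that was higher (against 4.83%), and 0 were lower (against 1.13%). No member was 2-fold apart the same way in all 3 pairs. These members were named after their values were seen. Zfp654 with No treatment and Zfp296 with LPS read below those arrays' medians, so each was measured through the array on which it was higher. Zfp296, a gene best known from pluripotent stem cells, read 1.13 units with TSA + GW3965 + LPS and 1.22 with GW3965 + LPS, 1.77 with TSA + LPS and 0.659 with LPS, and 1.45 with TSA and 0.747 with No treatment. Its reading was thus lower with TSA in the GW3965 pair, and its mean of 0.76 (SE 0.29) did not pass (limma adjusted p = 0.0731). Zfp654 had 2 probes. The brighter read 1.55 units with TSA and 0.682 with No treatment, the dimmer 0.950 and 0.450. With TSA + LPS and LPS the probes differed in direction, at 1.31 and 1.34 units for the brighter and 0.677 and 0.496 for the dimmer. The pair of probes for Zfp235 read 1.67 and 1.23 units, and 1.06 and 0.514, with TSA and No treatment.

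Any size counted, 14 of 46 members (30.4%) were higher in all 3 pairs, against 27.3% of all genes, and 8 (17.4%) were lower in all 3, against 23.1%. The 8 were Zfp142, Zfp185, Zfp207, Zfp316, Zfp385a, Zfp46, Zfp511 and Zfp90. Zfp185, an actin-associated protein with a LIM domain, read 2.28 and 2.54 units with TSA + GW3965 + LPS and GW3965 + LPS, 2.77 and 3.08 with TSA + LPS and LPS, and 3.29 and 3.54 with TSA and No treatment. Zfp511 read 1.87 and 2.59 units, 2.05 and 2.89, and 3.04 and 3.49 in the same order. None of the 8 passed limma for TSA, with mean differences from -0.45 to -0.12. The median TSA difference of the 46 members was 0.11, with quartiles at -0.14 and 0.46, against a median of 0.01 for all genes in the fit.

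**Figure D2:**
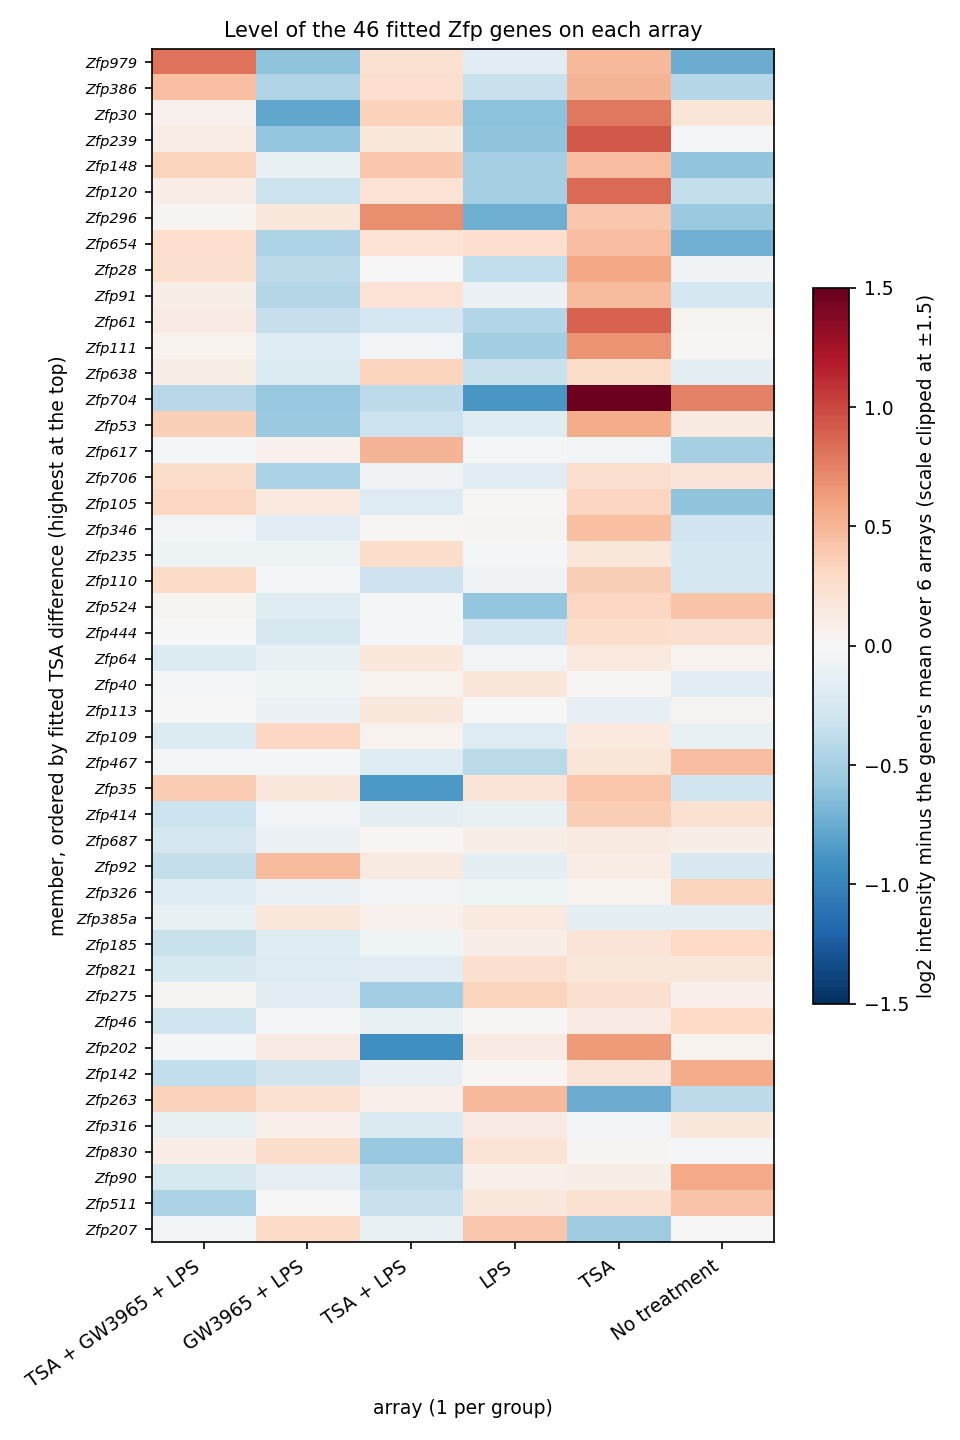
Each row is 1 of the 46 Zfp genes in the fit, ordered by fitted TSA difference, and each column 1 array; colour gives the log2 intensity minus the gene's mean over the 6 arrays, red above and blue below. The TSA column is the reddest, with 20 of 46 genes at their highest there, and the 6 members that rose with TSA lie at the top.

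Many of the members were highest on the TSA array. Of the 46 members in the fit, 20 (43.5%) had their highest reading with TSA alone, against 18.7% of all 5080 genes. The 20 include Zfp202, Zfp239 and Zfp30, which reached the median on the TSA array alone and so entered the fit through the array on which they were highest. With a filter on the mean level in place of that rule the shares were 43.6% and 18.3%. The members are dimmer than most genes, and among the 2540 genes below the median mean level the share was 20.5%, against 40.5% (15 of 37) for the members among them. On the other arrays the members' counts were 2 with TSA + GW3965 + LPS, 4 with GW3965 + LPS, 6 with TSA + LPS, 5 with LPS and 9 with No treatment. The median over all 79 members was 1.20 units with TSA, and between 0.801 and 0.956 units on the other 5 arrays. High readings there were not confined to the members. Among the 25 corepressor genes in the fit, described below, Cbx1, Hdac5, Mbd2, Rbbp4, Mta1, Mta2, Mta3 and Mphosph8 were highest on the TSA array. The others of the 25 were highest elsewhere. For the Zbtb, Zscan, Zkscan and Klf genes the share was not computed. Macrophage markers summed to their lowest value on the TSA array, 766 units, and the part of that in the result was not tested. With 1 array per group, an effect of TSA on resting cells and a property of that sample cannot be told apart.

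**Figure D3:**
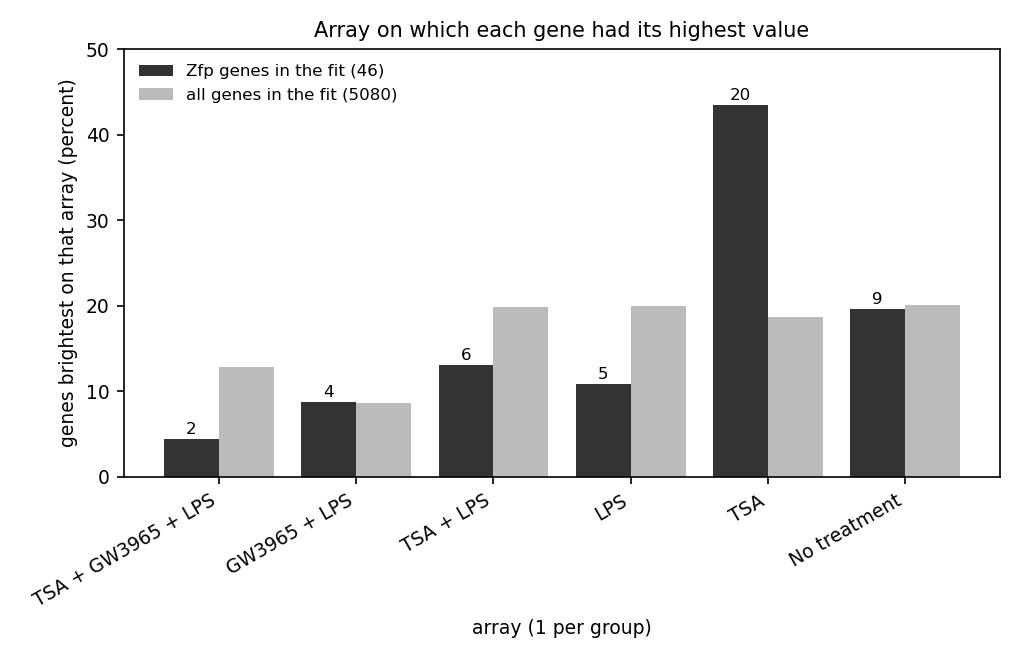
Percent of genes (y axis, from 0) that had their highest value on each array (x axis), for the 46 Zfp genes in the fit (dark bars, with the number of genes) and for all 5080 genes in the fit (light bars). The dark bar for TSA reaches 43.5% and the light one 18.7%, and for No treatment 9 members and 20.1% of all genes stood highest.

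LPS against its partners asks which zinc finger transcripts follow the inflammatory stimulus. Of 46 members 1 rose, Zfp263, and 2 fell, Zfp704 and Zfp61; among all genes 12.3% rose and 7.11% fell. At an unadjusted p under 0.05 there were 6, of which Zfp263 alone was higher with LPS. The share over all genes was not computed, so nothing about the family is read from that count. Any size counted, 21 of 46 members (45.7%) were lower in both LPS pairs, against 31.6% of all genes, and 7 (15.2%) were higher in both, against 34.3%. Among genes below the median mean level the share lower in both was 36.4%, against 54.1% (20 of 37) for the members. The median LPS difference of the 46 members was -0.21, against 0.03 for all genes in the fit. By pair, the members' median was -0.03 in LPS against No treatment (all genes 0.02) and -0.29 in TSA + LPS against TSA (all genes 0.03), the pair that holds the TSA array. Summed neutrophil markers were higher with LPS in both pairs, at 52.8 against 24.9 and 82.3 against 34.6 units. Mesothelial or fibroblast markers summed to 11.7 against 6.87 and 11.8 against 10.5 units, and mast cell markers to 18.4 against 13.5 and 19.8 against 15.1 units. The part of these markers in the LPS results was not tested. Quantile normalization moved the median of all genes to -0.11 and that of the members to -0.28.

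Zfp704 had the largest LPS difference of the family. It is also named Gig1, for a glucocorticoid-induced gene. It read 0.886 units with LPS and 2.74 with No treatment, 1.23 with TSA + LPS and 4.49 with TSA, 1.09 with GW3965 + LPS and 1.22 with TSA + GW3965 + LPS. All 4 arrays with LPS lay below both arrays without it. It was 3.09-fold lower in the pair without TSA and 3.64-fold lower in the pair with it, the 1 member at least 2-fold apart the same way in both pairs, and it fell by 1.75 (SE 0.29, limma adjusted p = 0.000136). This call held in all 9 alternative settings.

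Zfp61 read 1.56 units with LPS and 2.18 with No treatment, 1.78 with TSA + LPS and 3.92 with TSA, 1.67 with GW3965 + LPS and 2.31 with TSA + GW3965 + LPS. The groups overlapped, since TSA + GW3965 + LPS stood above No treatment, and the call was marginal: Zfp61 fell by 0.81 (SE 0.28, limma adjusted p = 0.0488, with 0.0301 to 0.0892 over 9 alternatives). Zfp263, whose human counterpart carries SCAN and KRAB domains, was the 1 member that rose. It read 4.83 units with LPS and 2.63 with No treatment, 3.63 with TSA + LPS and 2.06 with TSA, 4.03 with GW3965 + LPS and 4.399 with TSA + GW3965 + LPS. The 4 arrays with LPS were all above the 2 without it. The rise was 0.85 (SE 0.27, limma adjusted p = 0.0299), and with the higher floor the adjusted p was 0.0994 (range 0.0291 to 0.0994 over 9 alternatives).

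**Figure D4:**
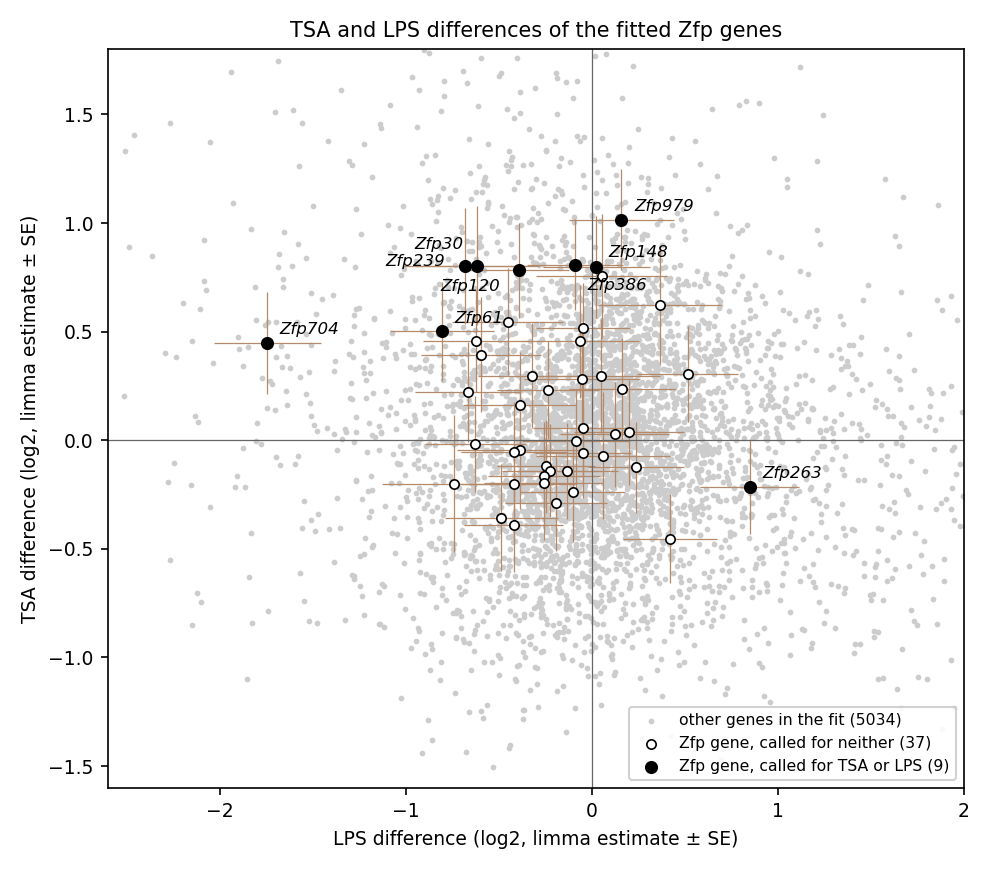
LPS difference (x axis) against TSA difference (y axis), both log2 limma estimates, for the Zfp genes with bars of 1 SE each way and for other genes in the fit as grey points; other genes beyond the axes are not drawn. The filled points are the 9 called members, with Zfp704 farthest to the left at -1.75 and Zfp979 highest at 1.02.

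By size, in LPS against No treatment 0 of 40 measured members were at least 2-fold higher (against 14% of all genes) and 2 were lower, Zfp704 and Zfp524 (against 6.05%). In TSA + LPS against TSA 0 of 43 were higher (against 9.2%) and 4 were lower, Zfp202, Zfp35, Zfp61 and Zfp704 (against 6.37%). That pair and TSA against No treatment share the TSA array. Zfp202, whose human counterpart represses lipid transport genes such as ABCA1, read 0.372 units with TSA + LPS and 1.10 with TSA, but 0.769 with LPS and 0.728 with No treatment, and 0.692 with TSA + GW3965 + LPS. Zfp35 read 1.496 units with TSA + LPS and 3.62 with TSA, against 3.11 with LPS and 2.20 with No treatment, and 3.52 with TSA + GW3965 + LPS. The low value of both genes was that of the TSA + LPS array alone. Zfp524 read 1.34 units with LPS and 2.70 with No treatment, and 1.98 with TSA + LPS and 2.48 with TSA. Zfp467, a regulator of the choice between fat and bone cells, was 1.83-fold lower with LPS than with No treatment, at 1.81 and 3.30 units, and did not pass (limma adjusted p = 0.121).

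Zfp36, which the rule leaves out, encodes tristetraprolin, which destabilises cytokine mRNAs. It read 29.2 units with LPS and 6.06 with No treatment, and 8.70 with TSA + LPS and 4.97 with TSA, and rose with LPS by 1.54 (SE 0.31, limma adjusted p = 0.000967). With TSA Zfp36 fell by 0.88 (SE 0.25, limma adjusted p = 0.0204). Zfp36l1 read 1.67 units with LPS and 2.42 with No treatment and passed for neither agent.

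GW3965 + LPS against LPS, and the same pair with TSA, ask what the liver X receptor agonist adds. limma called 0 of 46 members for GW3965, against 0.0591% of all genes that rose and 0.0197% that fell. An unadjusted p under 0.05 also gave 0 members. The share over all genes was not computed, and nothing is read from that count. Without TSA, 0 of 37 measured members were at least 2-fold higher (against 0.476%) and 0 lower (against 1.25%). With TSA, 1 of 39 was higher (against 1.75%), Zfp35 at 2.35-fold, and 0 lower (against 0.577%). That member's low reading on the TSA + LPS array, given above, enters this ratio. The member medians were -0.05 and -0.02 on the log2 scale in these pairs.

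Members with roles in RNA biology, or with other known roles, were picked for description after the values were seen. Zfp326, which works with DBC1 in splicing, read between 2.61 and 3.74 units over the 6 arrays. Zfp830, a nuclear protein of early embryonic growth, read 3.04 units with TSA + LPS and between 4.43 and 5.41 on the other 5. Zfp346, or Jaz, which binds double-stranded RNA, read 1.57 units with TSA and between 0.938 and 1.18 elsewhere. Zfp638, whose human counterpart silences unintegrated retroviral DNA, read 0.957 and 0.784 units with TSA + GW3965 + LPS and GW3965 + LPS, 1.14 and 0.717 with TSA + LPS and LPS, and 1.09 and 0.816 with TSA and No treatment, higher with TSA each time. Its mean difference of 0.46 (SE 0.26) did not pass (limma adjusted p = 0.242). Zfp110, which binds the p75 neurotrophin receptor, read 5.55 units with TSA and 3.58 with No treatment, and 3.47 with TSA + LPS and 4.13 with LPS, so its TSA step changed sign between these pairs.

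Among the 33 members that stayed below the median on every array, 12 were above the floor on all 6 arrays, 9 were under it on all 6 and 12 were mixed. Their highest single reading was 0.946 units, of Zfp54. The 9 included Zfp42, or Rex1, a marker of pluripotent stem cells, Zfp451, a SUMO ligase, and Zfp354a and Zfp354c, first known from kidney. No level or direction is drawn from them. Calls made for some of them with no filter are given at the end only to show how calls depend on the processing.

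Zinc finger genes often lie in clusters, and 22 of the 79 members lay in 8 runs with at most 3 protein-coding genes between neighbours in the RefSeq gene table of GRCm38.p6. The longest run held 8 members, in the order Zfp112, Zfp235, Zfp111, Zfp109, Zfp108, Zfp93, Zfp61 and Zfp94, and 4 of them were in the fit. Of these 4, Zfp111 and Zfp61 were higher with TSA in all 3 pairs, Zfp235 in 2 and Zfp109 in 2. The dimmer probe of Zfp235, not used in the fit, was higher in all 3. It read 0.887 and 0.596 units with TSA + GW3965 + LPS and GW3965 + LPS, 0.760 and 0.551 with TSA + LPS and LPS, and 1.06 and 0.514 with TSA and No treatment. Zfp111 read 2.33 units with TSA and 1.48 with No treatment, Zfp109 2.24 and 1.88, and 0 of the 4 passed for TSA. Their neighbour Zfp112 was under the floor throughout. None of the 6 members that rose with TSA lay in any of the 8 runs. The runs count only the 79 members, so zinc finger genes off the array or named otherwise are not seen. Whether the 6 lie among such genes was not examined.

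Other transcription factor families with zinc fingers are set beside the Zfp genes as counts, with no test between them. Of 10 Klf genes in the fit, Klf4 and Klf9 rose and Klf6 fell with TSA, while Klf3 and Klf6 rose and Klf9 fell with LPS. Of 4 Zbtb genes and 5 Zscan or Zkscan genes in the fit limma called 0 for TSA and 0 for LPS. The median TSA difference was -0.05 for Zbtb, 0.20 for Zscan or Zkscan and -0.10 for Klf, and the median LPS difference was 0.03, -0.26 and 0.23 in the same order. Over all genes in the fit the medians were 0.01 for TSA and 0.03 for LPS, with 11% risen and 7.54% fallen with TSA and 12.3% and 7.11% with LPS.

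Many zinc finger proteins, though not all, act through corepressors. A list of 49 such genes had 34 on the array and 25 in the fit. With TSA 2 rose, Cul3 and Hdac5, 4 fell, Mbd3, Ctbp1, Ctbp2 and Dnmt3a, and 19 did not pass, beside 11% risen and 7.54% fallen among all genes. Ctbp2 reached the array median only with LPS and with No treatment, at 1.20 and 1.17 units, both without TSA. It thus entered the fit through the arrays on which it was highest. Ctbp1, a dehydrogenase-like corepressor bound by many zinc finger proteins, read 5.35 units with TSA + GW3965 + LPS and 9.66 with GW3965 + LPS, 5.72 with TSA + LPS and 11.8 with LPS, and 9.91 with TSA and 17.8 with No treatment. It was lower in all 3 pairs and fell by 0.91 (SE 0.21, limma adjusted p = 0.00571). Mbd3, a subunit of the NuRD deacetylase complex, fell by 1.25 (SE 0.26, limma adjusted p = 0.00254). Hdac5 was level in resting cells, at 5.47 units with TSA and 5.44 with No treatment. It read 1.87 and 0.942 units with TSA + GW3965 + LPS and GW3965 + LPS, and 1.95 and 0.844 with TSA + LPS and LPS. Its TSA call (limma adjusted p = 0.0478) thus rests on the pairs with LPS. The counts moved with the setting: 0 to 4 rose over the alternatives, and 2 fell with the higher floor or without the LPS pair. With LPS 0 rose and 2 fell, Hdac5 by 2.09 and the DNA methyltransferase Dnmt3a by 2.12 (limma adjusted p = 3.9e-05 and 4.87e-06), and 23 did not pass, beside 12.3% risen and 7.11% fallen among all genes. Trim28, the partner of KRAB domains, read 3.74 and 4.69 units with TSA + GW3965 + LPS and GW3965 + LPS, 4.10 and 5.58 with TSA + LPS and LPS, and 7.03 and 7.13 with TSA and No treatment. It passed for neither agent (limma adjusted p = 0.429 for TSA and 0.147 for LPS). The methyltransferase Setdb1, which acts with it, read between 3.53 and 4.76 units on the 6 arrays.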

How the data were processed

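The deposited table holds 1 intensity per probe and array for 6 single-colour arrays. The deposited arrays have nearly equal medians; the scaling, software and background steps are not given in the sources used here. Per the labels, total RNA was amplified by in vitro transcription from an oligo-dT primer. Genes were named from the platform annotation, in which 8983 probes had 1 symbol, 1 had several and 1092 had none, and a gene with several probes was read from the brightest. Values were floored at each array's 25th percentile and log2-transformed. limma 3.58.1 in R 4.3.3 fitted terms for LPS, GW3965 and TSA to 5080 genes at or above the median on at least 1 array (empirical Bayes with intensity trend, 2 residual and 16.9 prior degrees of freedom, two-sided, Benjamini-Hochberg over all genes, threshold 0.05). "Rose" and "fell" refer to it. The interaction fit had 1 residual degree of freedom. A pair's fold was read only where the brighter of its arrays reached that array's median. With 1 array per group, the 2 residual degrees of freedom hold only how the TSA difference varied between its pairs. The SEs and p-values of that fit thus rest on departure from additive terms, not on replicate arrays. In that departure, a real interaction and spread between arrays cannot be told apart. The labels do not tell whether each array had its own culture or mice, so whether any such spread is technical or biological cannot be told. The number of 6 arrays also limits the precision.

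The members, lists and motifs were chosen with earlier results of these data known. Named members are those called for an agent, the 6 brightest, the 4 with the smallest spread and those 2-fold apart the same way in all pairs of an agent; all others were chosen after their values were seen. A planned grouping by protein domains was not used here. The pipeline was tested on simulated data. Alternatives covered scaling, floor, filter, probes, size threshold, prior variance and leaving out a pair. Figures used matplotlib 3.10.9 in Python 3.11.15.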

Additional observations from a re-analysis of the deposited data

How the results depend on the processing

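The precision is limited by 1 array per group, and most member calls lie near the threshold. No paired analysis was possible because each group has 1 array and the labels give no replicate numbers to use as a block; the fit itself already averages the TSA difference over 3 pairs of arrays that share their other agents. Of 124 named member values under the alternatives, 98 kept their direction and side of the threshold, 25 dropped below it, 1 passed it and 0 reversed. The 98 include values of Zfp91, Zfp207 and Zfp296, which were not called to begin with. TSA calls held in 10 of 11 settings for Zfp148, 9 of 11 for Zfp979 and Zfp120, and 8 of 11 for Zfp386. They held in 6 of 10 for Zfp239 and 4 of 10 for Zfp30. LPS calls held in 9 of 9 for Zfp704, 8 of 9 for Zfp263 and 3 of 9 for Zfp61. The lower floor, the filters, averaged probes and the prior variance left these estimates unchanged, so they could not reverse a direction.

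Against 6 members risen with TSA as reported, there was 1 with the floor raised to the array median, 1 without the No treatment pair and 3 without the GW3965 + LPS pair, where Zfp296 was added. The count risen over all genes moved too, as given above. The 2 fallen with LPS became 1 with that floor, with a mean level filter, with probes averaged, with a prior variance without trend, and without the GW3965 + LPS pair, and the 1 risen became 0 with that floor. Over all genes those fallen with LPS went from 361 to between 205 and 374 in these settings. Those risen with LPS went from 626 to 445 with that floor. Leaving out a pair also leaves fewer arrays; the cause of the other changes was not tested. Corepressors risen with TSA numbered 0 with quantile normalization, with the median floor, with no trend and without the GW3965 + LPS pair, 1 with cyclic loess, mean level filter, averaged probes and without the No treatment pair, and 4 with no filter, and those fallen 2 with the median floor and without the LPS pair. For members 2-fold higher, a 1.5-fold threshold gave 6, 5 and 18 in the TSA pairs with GW3965 + LPS, LPS and No treatment, 3 and 1 in the LPS pairs without and with TSA, and 2 and 5 in the GW3965 pairs without and with TSA; for members lower it gave 1 and 3 in the TSA pairs with GW3965 + LPS and LPS, 11 in TSA + LPS against TSA, and 1 in each GW3965 pair. A 3-fold threshold gave 0 in these TSA pairs and in the GW3965 pair with TSA, and 1 lower in each LPS pair. The measured members are those counted above at 2-fold. Over all genes, the 1.5-fold share was computed only for genes higher in the TSA pairs, as given above. At 3-fold it was not computed. Nothing about the family is read from the counts that lack it. The LPS pair without TSA had 1 higher with cyclic loess, and the TSA pair with GW3965 + LPS had 2. TSA + LPS against LPS had 0 higher with the median floor, and 0 lower with quantile normalization or cyclic loess. With no filter, 2 were lower there, 1 in TSA against No treatment, and 2 were higher in the GW3965 pair with TSA. The share of members brightest on the TSA array, an addition made after seeing the data, ran from 32.9% to 45.7% over 7 settings, against 15.1% to 22.4% of all genes, and the share lower in both LPS pairs from 36.7% to 56.5%, against 25.4% to 40.8%.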

Other observations

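With no filter on low values limma also called Zfp493 and Zfp354b as risen with TSA and Zfp101 as fallen with LPS, all members below the array median throughout. Over all 8841 genes that setting called 710 as risen with TSA and 504 as fallen with LPS. No direction is drawn from these member calls. Zfp493 read 0.390 units with TSA + GW3965 + LPS and 0.366 with GW3965 + LPS, 0.291 with TSA + LPS and 0.134 with LPS, and 0.574 with TSA and 0.132 with No treatment. The LPS and No treatment readings of Zfp493 lie under those arrays' floors. Zfp101 read 0.0460 units with GW3965 + LPS and 0.212 with TSA + LPS, under floors of 0.222 and 0.245. Folds that use any of these readings are bounds.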
